A study of Homo sapiens with 6 samples.

Results

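The G2/M and mitosis genes analysed here are 44 protein-coding genes that drive a cell from late interphase through division. They were listed by name and function, with earlier results of these data known, and all 44 were found among the 20020 genes counted. The cells were HCT116, a human colorectal carcinoma line with wild-type p53, irradiated and sequenced in 2 groups of 3 libraries. CAD-KO2+IR cells carried a lentiCRISPRv2 guide against CAD, the caspase-activated DNase encoded by DFFB, and sgVec+IR cells carried the vector without it. Both groups were collected 24 h after a dose of 8 Gy. Only 1 knockout line was sequenced, and no unirradiated library was analysed here, so the values compare irradiated cells with irradiated cells and do not measure the response to radiation itself. The sources used here do not say whether the 3 libraries of a group came from separate cultures, so the p-values measure the spread between these libraries, which may be technical.

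A cell enters mitosis when CDK1, bound to cyclin B, becomes active. WEE1 and PKMYT1 hold CDK1 inactive by phosphorylation, CDC25 phosphatases release it, and Polo-like and Aurora kinases then build the spindle. The spindle checkpoint holds the sister chromatids together until every kinetochore is attached, after which the anaphase-promoting complex (APC/C) with CDC20 marks securin and cyclin B for destruction and separase cuts cohesin. DNA damage stops cells at this border, acutely through CDC25 and WEE1. In the longer term p53 and its target p21 lower the transcription of most of these genes through the DREAM complex, which binds short promoter elements called CHR, while MuvB with B-MYB and FOXM1 raises it from the same elements in dividing cells.

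The promoters of the members share these elements. In RefSeq windows on GRCh38.p14 that run from 250 bases before to 50 bases after a transcription start, 35 of the 44 members had an entry. The CHR letters TTTGAA, read on both strands, occurred in 65.7% of these 35 genes, against 15.9% of the 15397 counted genes with such a window. The second CHR form, TTCGAA, occurred in 5.71% of the members and 2.14% of all genes. CCAAT, the box bound by NF-Y, was found on either strand in 82.9% against 42.5%. A CHR form and a CCAAT box stood together in 62.9% of the members and in 7.38% of all genes. A match describes the letters only and is not evidence of binding. Genes with several starts have several windows, and a gene was counted if any of them held the motif.

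Shown here are the 130 bases before the start for 4 members of different roles, each window lying wholly outside the gene as GENCODE annotates it, to let the spacing of the elements be seen. Each is written 5′ to 3′ on the strand of the gene, with CHR letters and CCAAT boxes in capitals on either strand, so that TTCAAA and ATTGG are the reverse complements. MKI67 encodes the Ki-67 antigen that coats mitotic chromosomes (reverse strand, chr10:128126424-128126553), ESPL1 encodes separase (forward strand, chr12:53268169-53268298), KIF11 encodes the kinesin that pushes spindle poles apart (forward strand, chr10:92593000-92593129) and CENPF encodes a kinetochore protein (forward strand, chr1:214603065-214603194).
MKI67: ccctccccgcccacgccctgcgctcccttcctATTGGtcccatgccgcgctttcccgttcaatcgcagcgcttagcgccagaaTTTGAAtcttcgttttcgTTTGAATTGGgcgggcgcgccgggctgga
ESPL1: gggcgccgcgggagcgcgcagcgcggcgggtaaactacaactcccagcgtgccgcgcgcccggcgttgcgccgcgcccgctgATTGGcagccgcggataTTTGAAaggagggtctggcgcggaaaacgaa
KIF11: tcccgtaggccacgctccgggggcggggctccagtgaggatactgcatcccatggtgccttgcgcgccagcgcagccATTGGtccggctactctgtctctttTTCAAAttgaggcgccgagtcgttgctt
CENPF: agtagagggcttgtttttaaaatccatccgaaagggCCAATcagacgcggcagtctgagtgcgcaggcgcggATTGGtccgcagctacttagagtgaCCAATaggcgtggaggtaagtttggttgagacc
The CHR nearest to the start began 29 bases before it in MKI67, where it overlaps a CCAAT box by its last base, 31 bases before it in ESPL1 and 28 in KIF11. CENPF had 3 CCAAT boxes and no CHR letters in this stretch.

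Counts on genes summed to between 14032994 and 19574144 per library. DFFB, the targeted gene, was lower in each CAD-KO2+IR library, with 185 to 217 counts against 297 to 357, but did not pass the test (log2 fold change −1.02, adjusted p = 0.55, edgeR). The library sgVec+IR replicate 3 stood apart from the other 5 libraries. It had 7561 genes without a count against 4577 to 5232, and its log2 CPM correlated with those of the others across genes at 0.886 to 0.927 against 0.954 to 0.993 among the rest. Epithelial colorectal markers summed to 2770 to 3940 CPM (counts scaled to a common library size) in CAD-KO2+IR and 2080 to 4030 in sgVec+IR, while leukocyte markers stayed at or under 1.16 CPM, with CD3E at 0. Fibroblast and endothelial markers summed to 26.2 to 39.9 CPM and 18.0 to 51.7 CPM, with DCN and LUM at 0. Among them VWF was lower in CAD-KO2+IR (log2 fold change −1.77, adjusted p = 1, edgeR), with 13 to 25 counts against 40 to 73. COL1A1, the other marker of that list that was tested, had a log2 fold change of 0.0034. The 6 epithelial markers tested ran from −0.54 (CDH1) to 0.31 (KRT18), with 2 higher and 4 lower. The part of these markers in the results was not tested. Because of replicate 3, the log2 fold changes are given with all libraries and without that library.

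No G2/M or mitosis gene passed the test for a difference between CAD-KO2+IR and sgVec+IR. With edgeR's quasi-likelihood test, 0 of the 43 members tested had both an adjusted p under 0.05 and a 1.5-fold or larger difference. Of all 12925 genes tested, 0.0309% did. DESeq2 also called 0 members, and 47 of the 12925 genes. Limma-voom called 0 of all genes, so its 0 among the members carries no information. EdgeR and DESeq2 called so few of all genes that their 0 of 43 members says little. At an unadjusted p under 0.05 in edgeR the number of members was again 0 of 43, against a background of 2.85%. The members lay on both sides of zero, with 23 higher and 20 lower in CAD-KO2+IR, and their median log2 fold change was 0.0088 against −0.01 for all genes tested. Single values ran from −0.45 for CDK1 to 0.35 for FOXM1. In MKI67 the 2 groups did not overlap, all CAD-KO2+IR libraries being higher. This was 1 of 43 members, while 5.23% of all genes were separated in that direction and 5.02% in the other. NUSAP1, a spindle protein, had 17, 10 and 4 counts in CAD-KO2+IR and 7, 2 and 5 in sgVec+IR and did not pass the filter on low counts.

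How large a difference the 6 libraries could have hidden is given by the 95% intervals. The standard error of a member ranged from 0.14 to 0.59 on the log2 scale, with a median of 0.24. For 17 of the 43 members the whole interval lay within a 1.5-fold change in either direction, and for 34 it lay within a 2-fold change, against 18.8% and 60.3% of all genes. For the other 9 members a 2-fold difference in at least one direction stayed inside the interval. In bulk RNA, fewer cells in G2 or mitosis and less RNA per such cell cannot be told apart.

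**Figure D1:**
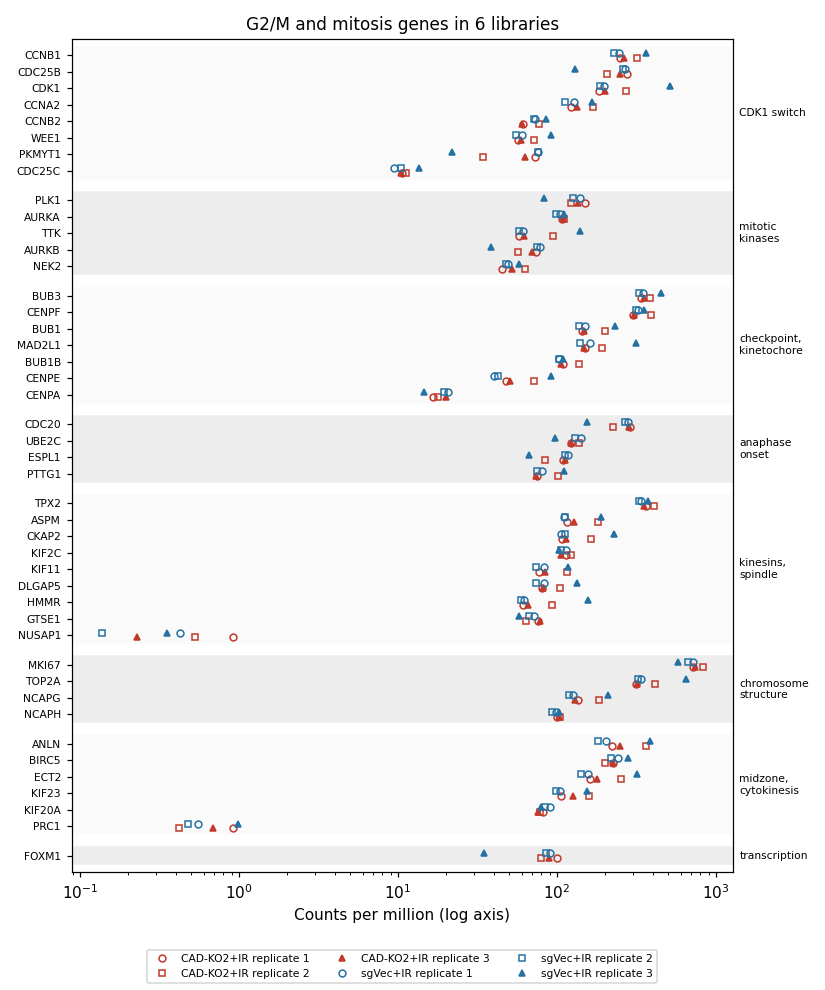
CPM of the 44 members in each of the 6 libraries on a log axis, 1 row per gene, with genes grouped by role. CAD-KO2+IR is red and sgVec+IR blue, and symbols mark the replicate. The filled blue triangle, sgVec+IR replicate 3, lies away from the other symbols in many rows, to the right for CDK1 (512 CPM) and to the left for PKMYT1 (22.0 CPM), and NUSAP1 and PRC1 lie below 1 CPM.

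The 8 genes of the CDK1 switch had a median log2 fold change of −0.04, with 2 higher and 6 lower and none past the test. CDK1 (ENSG00000170312.17), the kinase itself, stood at 184, 271 and 201 CPM in CAD-KO2+IR replicates 1 to 3 and at 199, 186 and 512 CPM in sgVec+IR replicates 1 to 3. The last of these was the highest of all 6, and the other 5 overlapped, so the log2 fold change of −0.45 (95% interval −1.42 to 0.52, adjusted p = 1, edgeR) rested on that library and was 0.19 (−0.23 to 0.60) without it. CCNB1 (ENSG00000134057.15), its partner cyclin B1, had 248, 319 and 266 CPM against 246, 230 and 364 CPM. Its groups overlapped, and the log2 fold change was −0.01 (−0.53 to 0.50) with all libraries and 0.22 (−0.11 to 0.55) without sgVec+IR replicate 3.

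Cyclin B2, the product of CCNB2 (ENSG00000157456.8), gave 61.7, 77.1 and 60.7 CPM in CAD-KO2+IR against 73.3, 71.8 and 84.9 CPM in sgVec+IR. Of the CAD-KO2+IR libraries, replicates 1 and 3 were below every sgVec+IR library and replicate 2 was not, and the log2 fold change was −0.20 (−0.62 to 0.21, adjusted p = 1, edgeR) with all libraries and −0.12 (−0.49 to 0.24) without sgVec+IR replicate 3. CCNA2 (ENSG00000145386.11), cyclin A2, which acts from S phase into early mitosis, had 122, 168 and 133 CPM against 129, 112 and 166 CPM. The ranges were nearly the same, and the log2 fold change was 0.06 (−0.44 to 0.56), or 0.23 (−0.17 to 0.63) without sgVec+IR replicate 3.

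The brakes and triggers of CDK1 did not separate the groups either. WEE1 (ENSG00000166483.12) had 56.8, 71.8 and 59.1 CPM against 60.3, 55.0 and 92.0 CPM, and PKMYT1 (ENSG00000127564.17) had 73.2, 34.5 and 63.5 CPM against 76.6, 76.6 and 22.0 CPM. These inhibitory kinases moved in opposite ways in the same library, sgVec+IR replicate 3 holding the highest value of WEE1 and the lowest of PKMYT1. Their log2 fold changes were −0.14 (−0.71 to 0.43) and −0.04 (−1.21 to 1.13), and without that library 0.12 (−0.25 to 0.49) and −0.425 (−1.08 to 0.23). Without it the groups of PKMYT1 no longer overlapped, CAD-KO2+IR being lower, as in 23.7% of all genes. The phosphatase gene CDC25B (ENSG00000101224.18) had 275, 207 and 251 CPM against 269, 262 and 130 CPM, a log2 fold change of 0.15 (−0.54 to 0.84). CDC25C (ENSG00000158402.21), its relative at the mitotic border, was counted less, with 10.6, 11.3 and 10.4 CPM against 9.47, 10.5 and 13.6 CPM and a log2 fold change of −0.05 (−0.58 to 0.48). For both phosphatases the groups overlapped and sgVec+IR replicate 3 held an extreme value, the lowest for CDC25B and the highest for CDC25C. Without it the log2 fold changes were −0.12 (−0.46 to 0.22) and 0.11 (−0.29 to 0.52).

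Of the 5 mitotic kinases, 4 were higher and 1 lower, with a median log2 fold change of 0.06 and none past the test. PLK1 (ENSG00000166851.15), which turns off WEE1 and matures the centrosomes, had 150, 122 and 136 CPM against 139, 127 and 83.3 CPM. AURKA (ENSG00000087586.18), the centrosome kinase, had 108, 111 and 109 CPM against 105, 98.6 and 111 CPM, among the narrowest ranges of the members. The log2 fold changes were 0.22 (−0.31 to 0.75) for PLK1 and 0.06 (−0.28 to 0.40) for AURKA, and the groups overlapped in both. Without sgVec+IR replicate 3 they were 0.03 (−0.30 to 0.35) and 0.10 (−0.19 to 0.39), and for AURKA each CAD-KO2+IR library was then above both sgVec+IR libraries. The same separation was found in 21.8% of all genes. AURKB (ENSG00000178999.13), the kinase of the chromosomal passenger complex, which corrects wrong attachments, had 74.1, 57.4 and 69.7 CPM against 78.5, 75.3 and 38.8 CPM, a log2 fold change of 0.06 (−0.62 to 0.74) that was −0.20 (−0.55 to 0.16) without sgVec+IR replicate 3. TTK (ENSG00000112742.10), the kinase MPS1 that starts the spindle checkpoint, had 57.7, 94.6 and 62.3 CPM against 61.2, 57.8 and 140 CPM. Here sgVec+IR replicate 3 was highest and CAD-KO2+IR replicate 2 second, the other 4 lay close together, and the log2 fold change was −0.27 (−1.19 to 0.65), or 0.27 (−0.26 to 0.79) without sgVec+IR replicate 3. NEK2, which splits the centrosomes, had log2 fold changes of 0.06 and 0.15.

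The spindle checkpoint and kinetochore group had 3 genes higher and 4 lower of 7, with a median of −0.03. MAD2L1 (ENSG00000164109.14), the checkpoint protein that inhibits CDC20, had 151, 193 and 148 CPM in CAD-KO2+IR and 161, 139 and 315 CPM in sgVec+IR. Again the highest value was that of sgVec+IR replicate 3, and the log2 fold change of −0.32 (−1.09 to 0.45) became 0.13 (−0.25 to 0.51) without it. The checkpoint genes BUB1 (−0.09), BUB1B (0.16) and BUB3 (−0.06), the centromeric histone CENPA (0.0024) and the kinetochore genes CENPE (−0.03) and CENPF (0.0088) all had intervals that included zero. In the fit without sgVec+IR replicate 3 these 6 log2 fold changes were 0.18 for BUB1, 0.20 for BUB1B, 0.09 for BUB3, −0.13 for CENPA, 0.46 for CENPE and 0.06 for CENPF, and the intervals still included zero.

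In the anaphase group 3 of 4 genes were higher, with a median of 0.04. CDC20 (ENSG00000117399.14), the activator of the APC/C, had 288, 225 and 284 CPM against 281, 268 and 155 CPM. The sgVec+IR replicate 3 value was the lowest, and the log2 fold change was 0.18 (−0.42 to 0.77) with it and −0.05 (−0.38 to 0.28) without it. UBE2C, the ubiquitin-conjugating enzyme of the APC/C, PTTG1 (securin) and ESPL1 (separase, held inactive by securin) had log2 fold changes of 0.04, −0.09 and 0.04, and of −0.0999, 0.11 and −0.175 without that library.

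Among kinesins and spindle proteins, 5 of the 8 genes tested were higher and 3 lower, with a median of 0.03. HMMR (ENSG00000072571.20), a microtubule-binding protein of the spindle poles, had 61.0, 93.8 and 65.5 CPM against 62.6, 59.7 and 158 CPM. CKAP2 (ENSG00000136108.15), which stabilises spindle microtubules, had 108, 165 and 115 CPM against 107, 113 and 228 CPM. In both genes sgVec+IR replicate 3 was highest and CAD-KO2+IR replicate 2 next, and the log2 fold changes of −0.35 (−1.32 to 0.63) and −0.20 (−1.002 to 0.60) turned to 0.27 (−0.21 to 0.74) and 0.24 (−0.22 to 0.70) without sgVec+IR replicate 3. The others, KIF11, KIF2C, TPX2, DLGAP5, ASPM and GTSE1, ranged from −0.13 (DLGAP5) to 0.15 (GTSE1), and without sgVec+IR replicate 3 from 0.06 (KIF2C) to 0.35 (ASPM).

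Chromosome structure gave 2 higher and 2 lower genes with a median of 0.02. TOP2A (ENSG00000131747.15), the topoisomerase that untangles sister chromatids, had 314, 414 and 318 CPM against 337, 325 and 647 CPM. Its highest library was sgVec+IR replicate 3, and the log2 fold change was −0.32 (−1.02 to 0.37, adjusted p = 1, edgeR) with it and 0.08 (−0.28 to 0.43) without it. MKI67 (ENSG00000148773.14), much used as a marker of proliferating cells, had 722, 828 and 741 CPM against 715, 671 and 580 CPM, or 764 ± 56.3 CPM against 656 ± 68.8 CPM (SD, n = 3 each). The lowest CAD-KO2+IR library was just above the highest sgVec+IR library, and the log2 fold change of 0.22 (−0.11 to 0.55) had the lowest p of all members, 0.155, with an adjusted p of 1 (edgeR). It was 0.14 (−0.11 to 0.40) without sgVec+IR replicate 3. The condensin genes NCAPG and NCAPH had log2 fold changes of −0.02 and 0.07 with that library, and of 0.29 and 0.11 without it.

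In the midzone and cytokinesis group 3 genes were higher and 3 lower, with a median of −0.02. BIRC5 (ENSG00000089685.15), survivin, which is a passenger of AURKB and also blocks apoptosis, had 226, 200 and 227 CPM against 243, 220 and 282 CPM. The groups overlapped at a log2 fold change of −0.19 (−0.56 to 0.18), which was −0.09 (−0.38 to 0.20) without sgVec+IR replicate 3. ANLN (ENSG00000011426.11), anillin of the contractile ring, had 224, 363 and 249 CPM against 204, 182 and 384 CPM. Both groups held 1 high library, and the log2 fold change was 0.12 (−0.66 to 0.90), or 0.53 (0.04 to 1.02) without sgVec+IR replicate 3. ECT2, which activates RhoA at the cleavage plane, and the kinesins KIF20A and KIF23 gave −0.05, −0.11 and 0.13. Without sgVec+IR replicate 3 they gave 0.42 (−0.06 to 0.90), −0.15 (−0.45 to 0.15) and 0.36 (−0.07 to 0.79), so ECT2 changed sign. PRC1, the bundler of midzone microtubules, had 17, 8 and 12 counts against 9, 7 and 14, with a log2 fold change of 0.02 (−1.38 to 1.41) and, without sgVec+IR replicate 3, of 0.38 (−0.96 to 1.72). The transcription factor FOXM1 (ENSG00000111206.13) had 99.6, 79.5 and 89.3 CPM against 90.2, 85.2 and 34.8 CPM. Only sgVec+IR replicate 3 lay outside the range of the others, at the low end, and the log2 fold change was 0.35 (−0.47 to 1.17) with it and 0.03 (−0.31 to 0.37) without it.

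**Figure D2:**
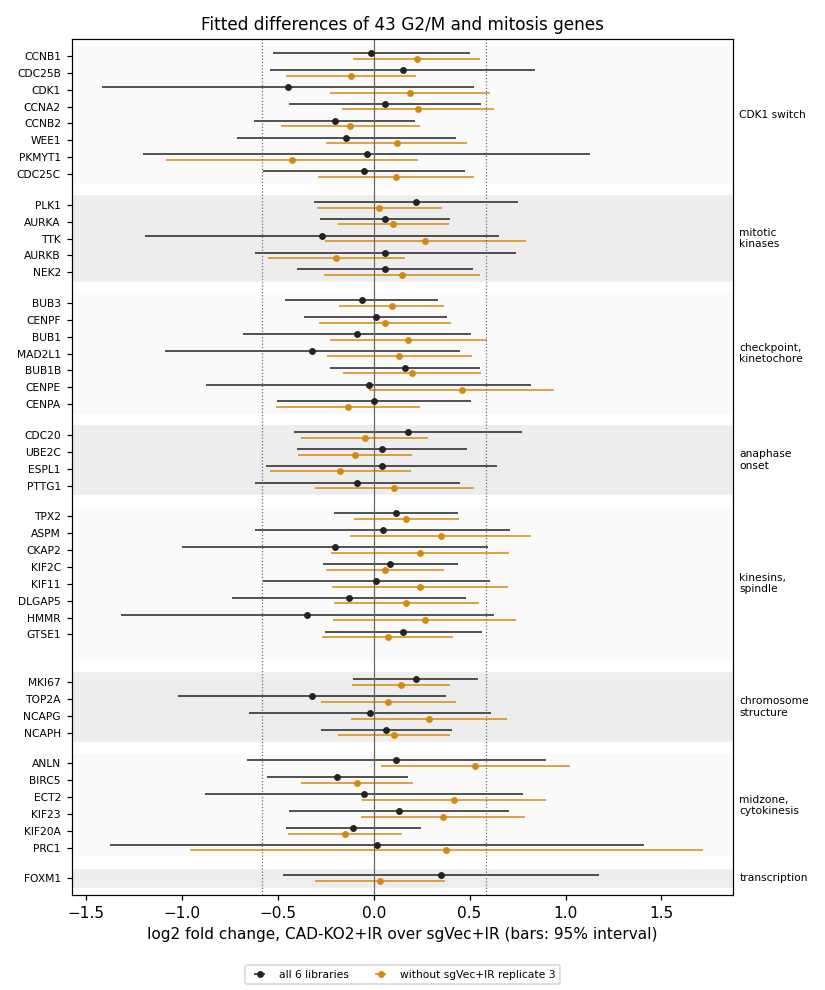
Fitted log2 fold change of CAD-KO2+IR over sgVec+IR for the 43 members tested, with 95% intervals, for all 6 libraries (black) and without sgVec+IR replicate 3 (orange). Dotted lines mark a 1.5-fold change in either direction. Every black interval includes zero, and among the orange ones that of ANLN (0.04 to 1.02) does not.

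The widest differences among the members were between libraries of the same group. The library sgVec+IR replicate 3 was at least 1.5-fold above the mean of replicates 1 and 2 in 18 of 43 members and at least 1.5-fold below it in 7, where 24.5% and 35.8% of all genes were. The log2 difference ran from −1.79 for PKMYT1 to 1.41 for CDK1. CAD-KO2+IR replicate 2 moved less, at least 1.5-fold above replicates 1 and 3 in 3 members (background 6.81%) and below them in 2 (19.2%), from −0.98 for PKMYT1 to 0.66 for TTK. By contrast sgVec+IR replicates 1 and 2 differed by −0.14 to 0.22 in every member, with a median of 0.09. In 38 of 43 members (88.4%) sgVec+IR replicate 3 and CAD-KO2+IR replicate 2 departed from their groups in the same direction, as did 81.4% of all genes.

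Which members were high and which were low in these libraries followed the base composition of the transcript. Across the 43 members, the log2 difference of sgVec+IR replicate 3 from its group correlated with the GC content of the longest coding transcript at r = −0.911, and that of CAD-KO2+IR replicate 2 at r = −0.882. Over 12885 genes with a GC value the correlations were −0.631 and −0.764, so the relation was not particular to mitosis genes. Between sgVec+IR replicates 1 and 2 the correlation was −0.0357, and between CAD-KO2+IR replicates 1 and 3 it was 0.575 over much smaller differences. These are descriptions across genes that share the libraries and are not independent. All 23 members with a GC content under 45% were higher in sgVec+IR replicate 3, with a median log2 difference of 0.76, and all 23 were higher in CAD-KO2+IR replicate 2, with a median of 0.46. Of the 11 members with a GC content of 50% or more, 1 was higher in sgVec+IR replicate 3 (median −0.79) and 2 in CAD-KO2+IR replicate 2 (median −0.26). The members as a whole had a median GC content of 43.2%, against 49.2% for all genes tested.

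The first 120 coding bases of 4 members with large differences in sgVec+IR replicate 3 illustrate the contrast in composition. They are reference sequence of GRCh38 as annotated by GENCODE, written 5′ to 3′ from the start codon. CDK1 lies on the forward strand at chr10:60778331-60794852 and TTK on the forward strand at chr6:80003887-80042527, and both were far higher in sgVec+IR replicate 3. PKMYT1 lies on the reverse strand at chr16:2968024-2980539 and CDC25B on the forward strand at chr20:3786772-3806121, and both were lowest in that library.
CDK1: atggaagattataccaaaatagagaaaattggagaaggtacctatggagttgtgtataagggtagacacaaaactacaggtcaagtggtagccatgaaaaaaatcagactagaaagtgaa
TTK: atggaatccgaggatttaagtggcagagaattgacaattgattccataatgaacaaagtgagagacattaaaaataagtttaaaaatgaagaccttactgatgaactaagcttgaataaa
PKMYT1: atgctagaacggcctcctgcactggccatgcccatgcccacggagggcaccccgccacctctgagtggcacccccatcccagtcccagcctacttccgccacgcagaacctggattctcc
CDC25B: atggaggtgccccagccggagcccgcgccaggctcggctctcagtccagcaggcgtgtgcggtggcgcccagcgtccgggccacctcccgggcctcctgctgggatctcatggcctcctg
In these stretches 35.8% of the bases were G or C in CDK1 and 30.8% in TTK, against 65.8% in PKMYT1 and 74.2% in CDC25B. The whole transcripts held 37.0%, 40.8%, 66.2% and 59.3%. HMMR and FOXM1, which are not shown, had larger log2 differences in sgVec+IR replicate 3 (1.37 and −1.33) than TTK (1.23) and CDC25B (−1.03). Their first 120 coding bases held 41.7% and 53.3% G or C, a smaller contrast. In other members this stretch departed from the transcript. It held 77.5% G or C in ASPM, 66.7% in CCNA2 and 63.3% in NCAPG, whose whole transcripts held 37.1%, 42.2% and 39.0%. These members were higher in sgVec+IR replicate 3, with log2 differences of 0.76, 0.46 and 0.77. The correlations above use the whole transcript.

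**Figure D3:**
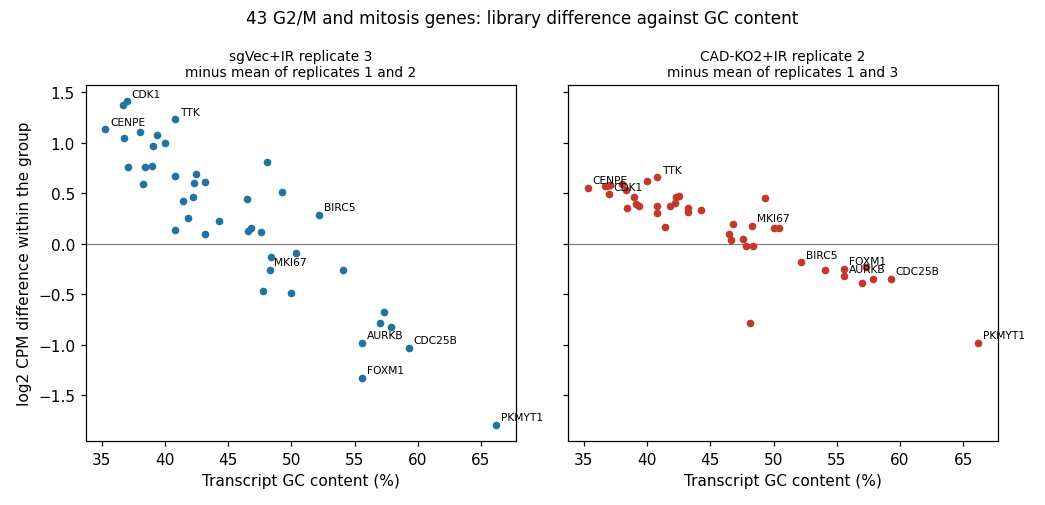
Log2 CPM difference of sgVec+IR replicate 3 (left) and CAD-KO2+IR replicate 2 (right) from the mean of the other libraries of the same group, against transcript GC content in percent, 1 point for each of the 43 members tested. Both clouds fall from upper left to lower right (r = −0.911 and −0.882), with CDK1 and TTK high and PKMYT1 lowest at 66.2% GC.

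Without sgVec+IR replicate 3 the members shifted upward, with 33 of 43 higher in CAD-KO2+IR and a median of 0.12 on the log2 scale, against −0.01 for all genes. None was called (background 0.167%). ANLN had an unadjusted p under 0.05, at a log2 fold change of 0.53 (0.04 to 1.02, adjusted p = 0.414, edgeR), so 1 member was higher and 0 were lower at that level, where 5.18% of all genes were higher and 6.67% lower. The groups did not overlap in 12 members that were higher and 4 that were lower, against 21.8% and 23.7% of all genes. The fitted values of the members still followed GC content, at r = −0.756 with CAD-KO2+IR replicate 2 still in the fit, whereas with all libraries r was 0.509 and with that library also left out it was −0.217. The part of GC content in the shift was not tested.

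With CAD-KO2+IR replicate 2 also left out, the 2 libraries of each group that were most alike gave a median of 0.04. The median difference between single libraries was 0.09 for sgVec+IR replicates 1 and 2 and −0.02 for CAD-KO2+IR replicates 1 and 3. In the fit of these most alike libraries 30 of 43 members were higher. At an unadjusted p under 0.05, 5 members were higher and 3 lower, against 14.6% and 15.1% of all genes, and 4 had an adjusted p under 0.05, where 16.2% of all genes did. They were ANLN (0.29 ± 0.063 standard error), CENPE (0.25 ± 0.088), ECT2 (0.19 ± 0.066) and CCNB2 (−0.24 ± 0.077), and none reached a 1.5-fold change. Limma-voom with sample weights, which gave the lowest weights to the same 2 libraries, had these 4 members and KIF23 (0.26 ± 0.075) at an adjusted p under 0.05, against 22.3% of all genes, again with none past 1.5-fold. In the weighted fit 7 members were higher and 4 lower at an unadjusted p under 0.05, against 18% and 19.1% of all genes. When each library was instead corrected for its trend with GC content, 5 members had an unadjusted p under 0.05, against 10.6% of all genes. These were TOP2A (−0.25), CDK1 (−0.31) and CCNB2 (−0.22), which were lower, and CDC20 (0.18) and FOXM1 (0.40), which were higher, with no adjusted p under 0.335. The correction did not free the members of the trend. Their corrected log2 fold changes still correlated with GC content at r = 0.449, against 0.509 with all libraries uncorrected.

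Scaled to exon length, the members were well expressed in these irradiated cells. Their median level was 28.2 CPM per kilobase, against 5.94 for all genes tested. CDC20 (123 CPM per kilobase), CCNB1 (109), TPX2 (100) and UBE2C (97.7) were highest, and CDC25C (3.29), CENPE (6.09) and WEE1 (7.12) were lowest apart from PRC1 (0.122) and NUSAP1 (0.15). In GENCODE, 57.6% of the exon bases of PRC1 are shared with another protein-coding gene on the same strand, ENSG00000284946, which had 83, 70 and 83 counts in CAD-KO2+IR and 52, 41 and 62 in sgVec+IR. These counts are not scaled to library size, and the totals were larger in CAD-KO2+IR (17467718 to 19574144 against 14032994 to 16311694). NUSAP1 shares 62.2% of its exon bases with ENSG00000285920, which had 0 counts in every library. How the counting treated reads in shared exons is not given in the sources used here, so the levels of PRC1 and NUSAP1 are uncertain. NCAPG and PKMYT1 overlap the exons of LCORL (33.1%) and PAQR4 (24.5%) on the opposite strand, and whether the counting used strand is not given.

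The rest of the mitotic machinery did not pass the test either. Of 116 other pathway genes in 6 lists, 114 were tested, 0 were called and 0 had an unadjusted p under 0.05, with a median log2 fold change of −0.02 (53 higher, 61 lower). Of all genes tested in that fit, 0.0309% were called and 2.85% had an unadjusted p under 0.05, so 0 called says little about this pathway. The list medians ran from −0.08 for 36 kinetochore and centromere genes to 0.13 for 11 MuvB, MYB and DREAM regulators, with the APC/C at −0.02, condensin and cohesin at −0.03, other kinesins and spindle genes at 0.0087 and entry kinases and phosphatases at 0.03. The genes with the lowest p were ANAPC16 (−0.52), ANAPC11 (−0.37) and CENPM (−0.40), which were lower, LIN9 of the MuvB core (0.42), which was higher, and the CDK1-binding CKS2 (−0.43), lower (adjusted p = 1 for each, edgeR). Without sgVec+IR replicate 3 the median was 0.15, 11 genes were higher and 2 lower at an unadjusted p under 0.05 among 115 tested, and 0 were called. In that fit 5.18% of all genes were higher and 6.67% lower at that level, and their median was −0.01.

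Genes on either side of mitosis were set beside the members. Of 5 p53-linked genes that restrain entry into mitosis (CDKN1A, SFN, GADD45A, BTG2 and RPRM), 4 were tested and all 4 were lower in CAD-KO2+IR, at a median of −0.19 on the log2 scale, and none was called. CDKN1A, which encodes p21, was at −0.38. With all libraries the lowest unadjusted p of the 4 was 0.201 (edgeR), and 6711 of all 12925 genes tested were lower. Without sgVec+IR replicate 3 the median was −0.46, with 2 of the 4 lower at an unadjusted p under 0.05 (all genes 6.67%) and none called. With CAD-KO2+IR replicate 2 also left out it was −0.31, with 4 of 4 lower at an unadjusted p under 0.05 (all genes 15.1%), 3 at an adjusted p under 0.05 (all genes 16.2%) and none called. The 30 genes of G1/S and DNA replication had medians of −0.03 with all libraries and 0.06 without sgVec+IR replicate 3, and none was called. A difference between these lists and the members was not tested.

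**Figure D4:**
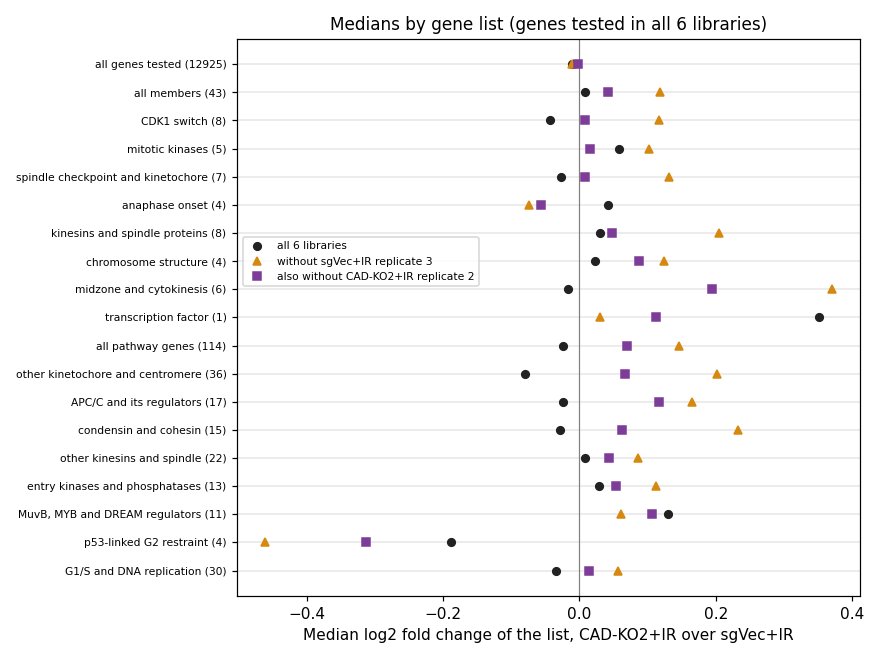
Median log2 fold change, CAD-KO2+IR over sgVec+IR, of all genes tested, the members and their 8 role groups, the 6 pathway lists and the 2 compared lists, with the number of genes tested in parentheses. Circles are all 6 libraries, triangles leave out sgVec+IR replicate 3 and squares also leave out CAD-KO2+IR replicate 2. The median of the members moves from 0.0088 to 0.12 and back to 0.04, and the p53-linked list lies below zero in all 3 fits.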

How the data were processed

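RNA-seq libraries of HCT116 cells were made with a SMARTER mRNA-Seq kit from total RNA. The authors cleaned the reads with fastp, used featureCounts (v1.5.0-p3) to count reads on genes, and deposited the raw counts, not normalized, in 1 column per library. The labels list the molecule as genomic DNA and the submitters' processing notes name the mouse build mm10, whereas the gene identifiers are human Ensembl ones. The aligner, annotation and strand setting are not given in the sources used here.

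Genes were kept by filterByExpr (minimum count 10, minimum total count 15), and libraries were scaled by TMM. EdgeR 4.0.16 (R 4.3.3) compared the groups with its quasi-likelihood test (legacy set to FALSE), with Benjamini-Hochberg adjustment over all genes tested, and a call needed an adjusted p under 0.05 and a 1.5-fold difference, the thresholds of the study's methods. CPM use the TMM-scaled library size. Differences between libraries use log2 CPM with a prior count of 2. Depth was 14032994 to 19574144 counts per library, and CPM of members under 1 rest on at most 17 counts. No pair of libraries of a group was alike within counting noise, since the chi-square per gene was at least 2.59. Alternatives were DESeq2 1.42.0, limma-voom 3.58.1 with and without sample weights, RLE and upper quartile scaling, no filter, the default quasi-likelihood fit, a replicate block and libraries left out. A GC correction (lowess, span 0.3) was added after seeing the data. Exon lengths, GC content and overlaps came from GENCODE release 29 on GRCh38, matched by identifier for 19823 of 20020 genes, and promoters from RefSeq on GRCh38.p14. WEE1, PKMYT1, AURKA, TTK, BUB3, UBE2C, TPX2, BIRC5 and FOXM1 had no promoter entry. The fits were tested on simulated data. Those data held no outlying library and no trend with GC content, so they do not show how the fits perform with these libraries.

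The members and lists were chosen with earlier results of these data known. Values in each library were given for 14 fixed members, for the 5 others with the largest log2 fold changes and for the members called or with an unadjusted p under 0.05, and pathway genes were the 5 with the lowest p. PKMYT1, ANLN, NUSAP1 and PRC1 were added after their values were seen.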

Additional observations from a re-analysis of the deposited data

How the results depend on the processing

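With each of the 16 alternatives, 0 members were called in either direction. Limma-voom, the replicate block and the fits without CAD-KO2+IR replicate 1, 2 or 3 called 0 of all genes. Their 0 among the members therefore carries no information. The fits without sgVec+IR replicate 1 or 2 each called 1 of all genes. RLE and upper quartile scaling, no filter and the default quasi-likelihood fit each called 4. The fit without sgVec+IR replicate 3 called 22, the GC correction 41 and DESeq2 47. With so few calls among all genes, 0 among the members says little in these fits too. With sample weights 666 of 12925 genes were called. With CAD-KO2+IR replicate 2 and sgVec+IR replicate 3 left out, 440 of 13059 were. The numbers of members at an unadjusted p under 0.05, 0 higher and 0 lower with all libraries, became 7 and 4 in limma-voom with sample weights (all genes 18% and 19.1%), 5 and 3 with CAD-KO2+IR replicate 2 and sgVec+IR replicate 3 left out (14.6% and 15.1%), and 2 and 3 with the GC correction (10.6% in both directions together), and with 1 library left out they ranged from 0 to 1 higher. Leaving out 1 library moved the number of members that were higher from 16 (without CAD-KO2+IR replicate 2) to 33 and the median log2 fold change from −0.10 to 0.12. Pathway genes with an unadjusted p under 0.05, 0 with all libraries, numbered 1 in DESeq2 and 0 to 13 with 1 library left out. The 13, of 115 tested, came without sgVec+IR replicate 3, where 5.18% of all genes were higher and 6.67% lower. With sample weights they numbered 43 of 114 (all genes 18% higher and 19.1% lower). With the GC correction they were 13 of 114 (10.6%), and with the pair of libraries left out 33 of 115 (14.6% and 15.1%). With sample weights 1 pathway gene was called, where 666 of all 12925 genes were. DFFB, at −1.02 with an adjusted p of 0.55 in edgeR, passed the threshold in DESeq2 (−1.02), with sample weights (−0.92) and with the pair left out (−0.996).

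Signs of single members turned. CCNB1, at −0.01, was 0.0128 in limma-voom, 0.00644 with the GC correction and 0.00927 with the replicate block. With sample weights the log2 fold changes that turned were HMMR 0.0782, TTK 0.0453, CKAP2 0.0557, CCNB1 0.14, CDK1 0.0368, WEE1 0.0219, CDC25B −0.0535, CDC25C 0.0748 and AURKB −0.13. With the pair left out they were HMMR 0.0527, TTK 0.0155, CKAP2 0.0286, CCNB1 0.11, CDK1 0.00678, WEE1 0.00908, CDC25B −0.00754, CDC25C 0.0857 and AURKB −0.0932. With 1 library left out at a time, CCNB1 ran from −0.13 to 0.22, AURKB from −0.20 to 0.23, CCNA2 from −0.0886 to 0.23, HMMR from −0.58 to 0.27, MAD2L1 from −0.53 to 0.13, TTK from −0.53 to 0.27, CKAP2 from −0.42 to 0.24, CDK1 from −0.69 to 0.19, WEE1 from −0.28 to 0.12, CDC25B from −0.12 to 0.32, CDC25C from −0.16 to 0.11, CDC20 from −0.0471 to 0.33 and TOP2A from −0.49 to 0.0758 in log2 fold change, and 12 of these 13 turned without sgVec+IR replicate 3. CCNB2 ran from −0.33 to −0.12, PLK1 from 0.0283 to 0.37 and BIRC5 from −0.26 to −0.0889 with no change of sign. The causes of these turns were not tested.

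The replicate numbers were not shown to pair the libraries. Deviations from the group means correlated at 0.468, −0.545 and −0.379 for numbers 1 to 3, and 1 of 6 libraries correlated best with its own number. The outlying libraries, CAD-KO2+IR replicate 2 and sgVec+IR replicate 3, weigh on these values under different numbers. The correlations therefore cannot show whether libraries of the same number were prepared together. The replicate block left 0 calls among all genes, against 4 without it. Where single libraries were left out, at least 2 remained in each group. Low counts limit NUSAP1 and PRC1, and the spread between libraries limits the rest. The cause of these low counts was not tested.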
